A study of Mus musculus with 10 samples.

Results

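The genes described here are the 94 mouse genes with a symbol starting Kcn, which encode the subunits of potassium channels, among 21000 protein-coding genes in the RefSeq annotation of the mm10 genome. They were taken by symbol alone, and a gene counted as bound in a library when its start site was the nearest protein-coding start site of the centre of at least 1 ERα peak. By this count 40 of the 94 genes (42.6%, against 26.3% of all protein-coding genes) were bound in at least 1 of 8 libraries and 54 were bound in none. ERα binding was mapped by chromatin immunoprecipitation and sequencing (ChIP-seq) in the arcuate nucleus and in the AVPV. The aim was to compare the places through which estrogen restrains or promotes gonadotropin release. By AVPV the paper means a rostral periventricular area that holds the periventricular as well as the anteroventral periventricular nucleus, counted here as 1 nucleus. All 8 libraries, 4 of each nucleus, came from female C57BL/6 mice that had been ovariectomised, given a subcutaneous implant of 17β-estradiol in sesame oil (0.1 mg/mL), and injected a week later with estradiol benzoate (0.05 mg/kg), with tissue taken 28 h after the injection. No library of vehicle-injected mice was analysed here, so the comparison is between nuclei and not between hormone states, and the pooled chromatin of a whole nucleus holds the DNA of many cell types.

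Potassium channels let potassium leave the cell, which returns a neuron to rest after an action potential and sets how easily and how often it fires. The pore is built from subunits that open with voltage, with calcium or sodium, with G proteins, or that leak at rest, and auxiliary subunits alter how fast these pores open and close. Estrogen is known to change potassium currents in hypothalamic neurons, and ERα reaches DNA either at the estrogen response element, a palindrome of 2 half-sites, or through other DNA-bound proteins.

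The 8 peak lists held from 2367 to 4079 peaks, 25982 in all, which merged into 8072 regions. A region is the span of overlapping peaks of any libraries, and a region shared by 2 or more libraries of the same nucleus is called a site here. Each peak carries a fold enrichment, its read signal over the local background estimated in peak calling. The fold enrichment is also given here as a percentile within the list, since backgrounds may differ between libraries. The arcuate lists were the longer ones in general, with 3251 to 4079 peaks against 2367 to 3347 in the AVPV. Greb1, the classic target of ERα, was bound in all 8 libraries. Peak lists carry no expression values, so neither the dissected nucleus nor the expression of any channel could be checked in them. The number of reads behind each list was not analysed here, so a gene for which no peak was called may still be bound.

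The response elements found at the most reproducible potassium channel regions are shown first, since they show the DNA that lay beneath the peaks. They are the matches in Kcn regions with a peak in all 4 libraries of at least 1 nucleus, with Kcnj13 added because its match was perfect. The element sought was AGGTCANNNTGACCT on either strand, allowing 2 mismatches among the 12 defined bases, within 100 bp of the summit of the strongest peak. Each line gives a window of 30 bases from the plus strand of mm10, with the element in capitals.
Kcnv2 48.4 kb downstream, chr19:27370975-27371004: gcttcccAGGTCATCCTGACCTtacaattc
Kcnj13 29.8 kb downstream, chr1:87364945-87364974: tccctgtAGGTCAGGCTGACCTaaaagaga
Kcnf1 79.9 kb downstream, chr12:17097024-17097053: caatctcAGGTCAAACTGACCCaggaagca
Kcnip1 18.5 kb downstream, chr11:33662127-33662156: tgtctgaAGGTCAAGGCGACCTctgcagag
Kcne4 27.0 kb upstream, chr1:78789883-78789912: aagaggtAGGTCAGCCTGCCCTgaagcact
Kcne4 76.0 kb downstream, chr1:78892961-78892990: ggcagcaAGGGCAAGATAACCTggaacttt
Kcnj15 46.6 kb downstream, chr16:95304174-95304203: gtctctcAGATCATCATGACCCagctcctt
Kcnip4 0.9 kb upstream, chr5:49525810-49525839: aaaagaaAGGTCGAGTTGACCGgttctgtg
Kcnd2 119.0 kb upstream, chr6:21096294-21096323: taaggaaGAGTCATCATGACCTcagactct

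The Kcnv2 and Kcnj13 elements had 0 mismatches and lay 9 bp and 2 bp from the summit. The Kcnf1, Kcnip1 and upstream Kcne4 elements had 1 mismatch, and the remaining 4 had 2. Of the 37 Kcn sites, 17 held such an element (45.9%), against 36.1% of all 4388 sites. In windows shifted by 5 kb the figures were 1 of the 37 Kcn sites and 1.55% of all sites. Among the 8 Kcn regions with a peak in every library (10.8% of Kcn regions, against 13.5% of all regions), 5 held an element, against 33.5% of the 1089 such regions in the genome. The other 20 Kcn sites held no sequence within 2 mismatches in this window. A match is a sequence in the DNA and not a measurement of how ERα was held there.

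An arcuate library had 18 to 28 bound Kcn genes, and an AVPV library had 10 to 20. In the arcuate libraries 1 to 4 the numbers were 28, 20, 18 and 19 genes (22.6% ± 4.87 of the 94, SD, n = 4 libraries). The AVPV libraries had 16, 10, 17 and 20 genes (16.8% ± 4.46, SD, n = 4). The arcuate had more bound Kcn genes on average, with arcuate 1 highest and AVPV 2 lowest of all, but the ranges overlapped. Over all protein-coding genes the shares were 13.9% ± 1.09 in the arcuate and 11.3% ± 1.61 in the AVPV, so the longer arcuate lists went with a higher share there too. The share of Kcn genes exceeded that of all genes in all 8 libraries, by 6.47 to 14.9 percentage points for the arcuate and by 0.357 to 9.54 for the AVPV. The mean shares of 71 calcium, sodium, HCN and TRP channel genes were 27.5% in the arcuate and 18.7% in the AVPV. Those of 46 glutamate and GABA receptor genes were 21.7% and 20.1%, so a mean share above that of all genes was not particular to Kcn genes.

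**Figure D1:**
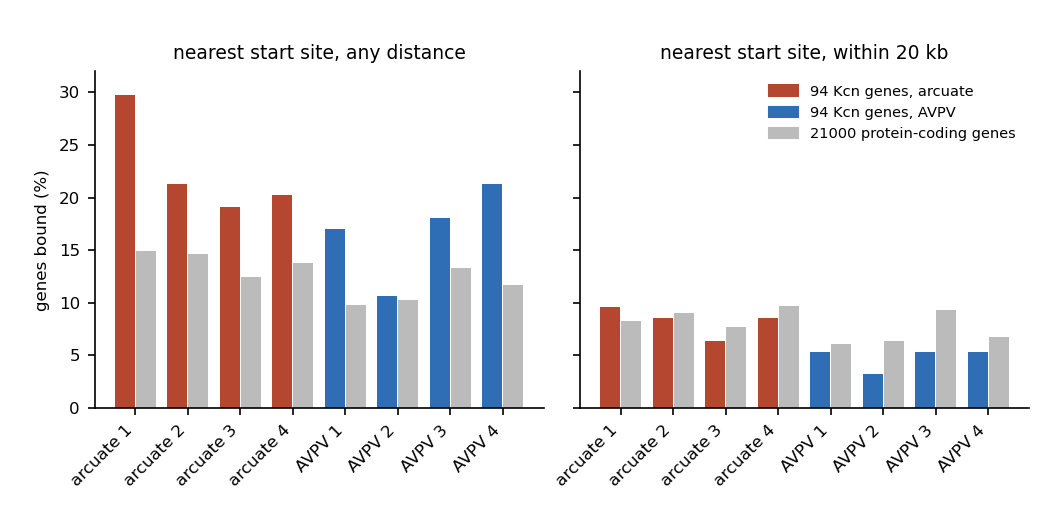
Percent of the 94 Kcn genes (red, arcuate; blue, AVPV) and of the 21000 protein-coding genes (grey) bound in each of the 8 libraries, on a linear axis from 0, with peaks assigned to the nearest start site at any distance (left) or only within 20 kb (right). The coloured bar is above the grey one in all 8 libraries on the left and only in arcuate 1 on the right.

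The excess depended on distance. Counting only peaks with their centre within 20 kb of the start site, 9, 8, 6 and 8 Kcn genes were bound in the arcuate libraries (8.24% ± 1.34) and 5, 3, 5 and 5 in the AVPV (4.79% ± 1.06, SD, n = 4 each). The share over all genes was then 8.67% ± 0.858 and 7.14% ± 1.47. The Kcn share was therefore below that of all genes in 7 of 8 libraries, with a mean difference of -0.421 percentage points for the arcuate and -2.35 for the AVPV. In this count the nuclei did not overlap, but narrowly, since the lowest arcuate library had 6 bound Kcn genes and the highest AVPV library had 5. Over all genes they did overlap, as the share in AVPV 3 (9.30%) was above that in arcuate 3 (7.69%). The calcium, sodium, HCN and TRP channel genes also separated, with at least 7 bound per arcuate library and at most 6 per AVPV library. The glutamate and GABA receptor genes did not, with 1 bound in arcuate 1 and 1 in AVPV 1. The separation was therefore not particular to Kcn genes, and the arcuate lists were longer in general.

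Peaks assigned to Kcn genes lay farther out than other peaks. Their median distance from the start site was 52.8, 52.8, 48.4 and 32.8 kb in the arcuate libraries and 47.5, 40.8, 47.5 and 47.5 kb in the AVPV, where the median over all peaks of a list ranged from 0.699 to 26.4 kb. Between 19.2% and 37.5% of Kcn peaks lay within 20 kb, against 45.7% to 62.8% of all peaks, and these ranges did not overlap. By strength, the median percentile of fold enrichment of Kcn peaks ranged from 43.8 to 51.7 over the arcuate lists and from 33.3 to 51.4 over the AVPV lists, and was below 50 in 6 of 8. The share of Kcn peaks in the strongest 25% of a list was 12.5% to 20.6% for the arcuate and 4.17% to 15.4% for the AVPV, below 25% in all 8.

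**Figure D2:**
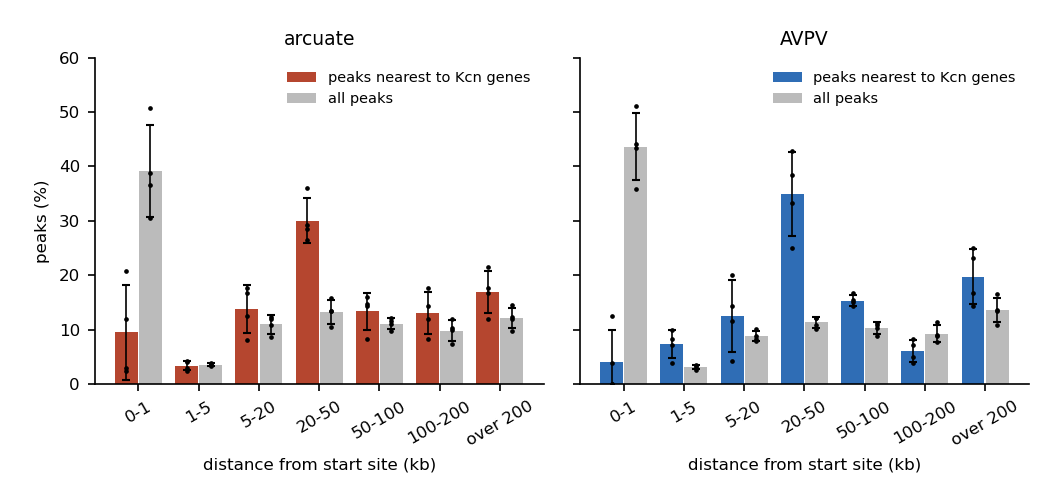
Percent of peaks by distance from the nearest start site in 7 distance classes (kb) for peaks nearest to Kcn genes (red or blue) and all peaks (grey), as means over the 4 libraries of each nucleus with SD bars and a dot for each library. Kcn peaks have few members within 1 kb, where all peaks have most, and their tallest bar is 20 to 50 kb out in both nuclei.

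The DNA closer to a gene's start sites than to those of any other protein-coding gene is called its territory here. It was long for Kcn genes, with a median of 108 kb against 49.0 kb over all genes, and longer for the 40 bound Kcn genes (286 kb) than for the 54 unbound ones (73.8 kb). Over all genes it was likewise longer for bound genes (89.0 kb) than for unbound ones (42.0 kb). The median was 102 kb for the calcium, sodium, HCN and TRP channel genes and 313 kb for the glutamate and GABA receptor genes. The 94 territories covered 25.7 Mb, 0.944% of the genome assigned. They held 1.03%, 0.879%, 0.769% and 0.692% of the peaks in the arcuate libraries and 0.845%, 0.551%, 0.717% and 0.850% in the AVPV, so the peak number per Mb exceeded that of the genome in arcuate 1 only. The ratio of Kcn to genomic peak density was 0.893 ± 0.155 in the arcuate and 0.785 ± 0.149 in the AVPV (SD, n = 4 each). The same ratio had a median over the 8 libraries of 0.855 for Kcn genes, 1.69 for 71 calcium, sodium, HCN and TRP channel genes and 0.481 for 46 glutamate and GABA receptor genes. Over libraries the ratio ranged from 0.584 to 1.09 for Kcn genes, from 1.41 to 2.17 for the other channels and from 0.268 to 0.618 for the receptors, so the Kcn range lay below that of the other channels and overlapped that of the receptors. The part that territory length plays in the larger share of bound Kcn genes was not tested.

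Taking genes bound in at least 2 of 4 libraries, 21 Kcn genes were bound in the arcuate (22.3%, against 14.7% of all genes) and 18 in the AVPV (19.1%, against 11.9%). Of these, 14 were bound in both nuclei (9.62% of all genes were), 7 in the arcuate with at most 1 AVPV library (5.1% of all genes) and 4 in the AVPV with at most 1 arcuate library (2.26% of all genes). Those bound in at least 1 library were 42.6% of Kcn genes and 26.3% of all genes, and 12 Kcn genes (12.8%, against 7.89% of all genes) were bound in a single library. Within 20 kb, 17 Kcn genes (18.1%, against 17.5% of all genes) were bound in at least 1 library. At least 2 libraries bound 7 in the arcuate (8.86% of all genes) and 4 in the AVPV (7.4%), and the 4 were among the 7 (6.03% of all genes were bound in both). Kcnip1 was bound within 20 kb in all 8 libraries, among 2 Kcn genes that were (3.12% of all genes). No Kcn gene was bound within 20 kb in all 4 libraries of a nucleus and none of the other, a class that held 0.224% of all genes for the arcuate and 0.0762% for the AVPV.

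**Figure D3:**
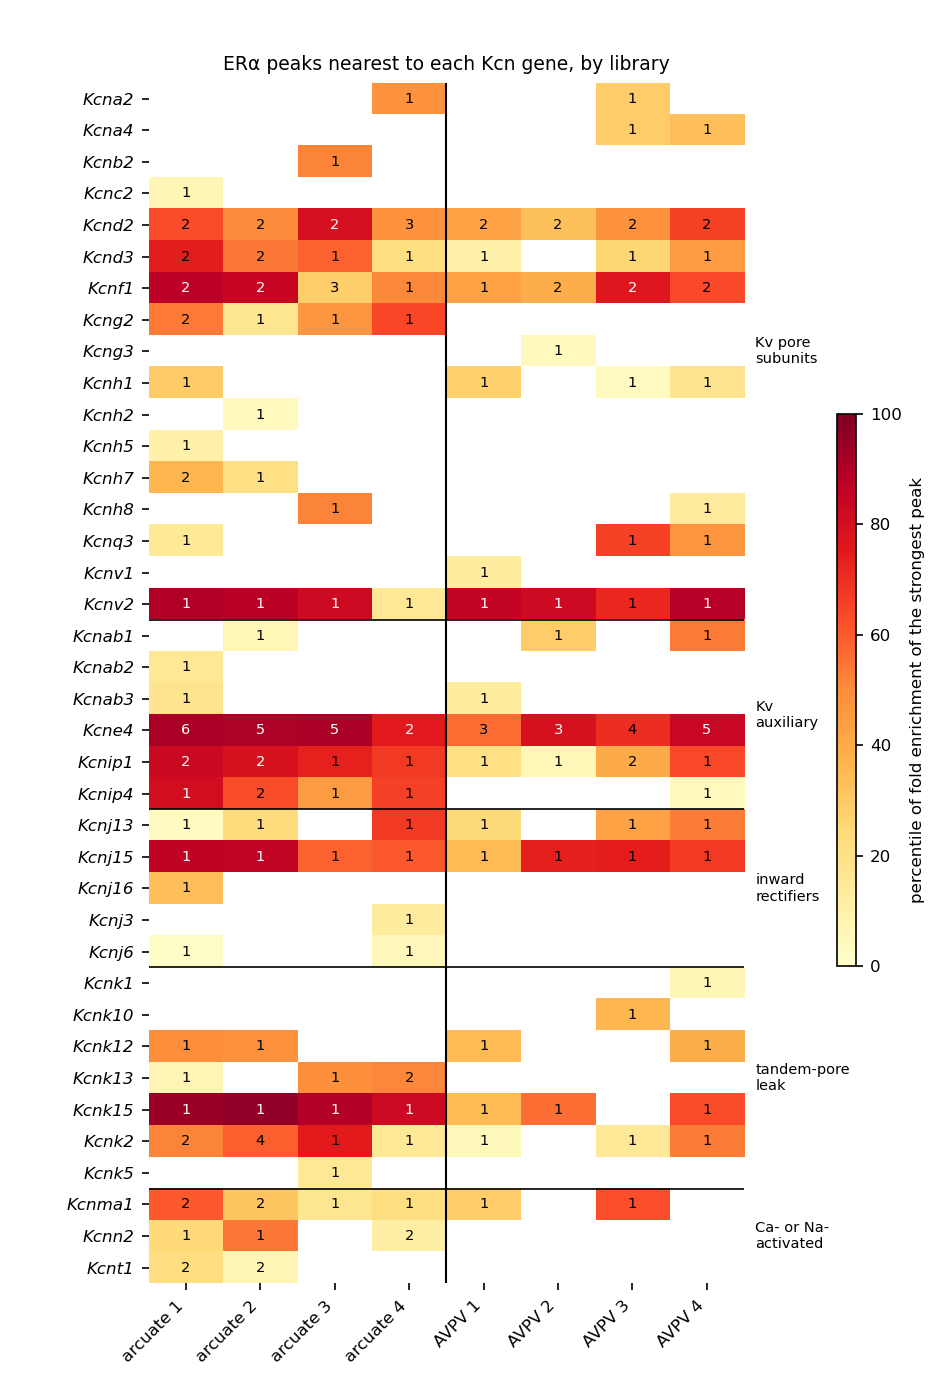
Each row is 1 of 38 Kcn genes bound in at least 1 library, grouped by role, and each column is a library. The number is the count of peaks nearest to the gene, and the colour is the percentile of fold enrichment, within its list, of the strongest of them. Kcnd2, Kcnf1, Kcnv2, Kcne4, Kcnip1 and Kcnj15 fill all 8 columns, and Kcng2 fills the 4 arcuate columns and none of the AVPV.

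Among the 40 voltage-gated pore subunits, which carry the currents that end action potentials, 19 were bound in at least 1 library (47.5%, against 26.3% of all genes), 8 in at least 2 arcuate libraries (20%, against 14.7%) and 9 in at least 2 AVPV libraries (22.5%, against 11.9%). Those bound in all 8 libraries included Kcnd2, Kcnf1 and Kcnv2, among 7 Kcn genes so bound (7.45%, against 5.02% of all genes).

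Kcnd2 and Kcnd3 encode pore subunits of the A-type current, which delays firing and spaces action potentials. An intronic Kcnd2 region 245.6 kb downstream (chr6:21460798-21461126) had peaks in every library, with fold enrichments of 7.18, 5.92, 9.44 and 5.05 in the arcuate and 5.75, 5.38, 5.95 and 5.39 in the AVPV. The intergenic Kcnd2 region 119.0 kb upstream (chr6:21096143-21096562), whose element is printed above, had 4 AVPV peaks of 4.08 to 7.66 and 2 arcuate peaks of 3.44 and 3.30. All 4 AVPV peaks were stronger than both arcuate peaks by fold enrichment. Kcnd2 also had an exonic site 0.1 kb from the start, with peaks in arcuate 3 and arcuate 4 and in no AVPV library. Kcnd3, chosen after its values were seen, had an intronic region 116.6 kb downstream with peaks of 8.47, 6.19, 6.84 and 4.69 in the arcuate and a single AVPV peak of 4.83.

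Kcnf1, Kcng2 and Kcnv2 encode electrically silent subunits, which form no channel alone but alter the delayed-rectifier pores of other subunits. The Kcnv2 region was among the strongest Kcn regions in both nuclei and lay in intergenic DNA 48.4 kb downstream (chr19:27370692-27371392). Its fold enrichments were 13.0, 11.2, 10.03 and 4.44 in the arcuate and 11.9, 10.6, 8.13 and 13.4 in the AVPV. Arcuate 4 stood far below the other 7 libraries there, and the nuclei overlapped. A noncoding gene, Gm35554, started nearer to this region, 26.3 kb away, so Kcnv2 lost its region when the start sites of noncoding genes were counted. The Kcnf1 region 79.9 kb downstream (chr12:17096765-17097258) had fold enrichments of 11.8, 9.95, 5.02 and 5.87 in the arcuate and 5.79, 5.61, 8.91 and 7.49 in the AVPV, which also overlapped. A second Kcnf1 region, 82.5 kb downstream, had peaks in arcuate 1, 2 and 3 and in no AVPV library.

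Kcng2 was the only Kcn gene bound in all 4 libraries of a nucleus and none of the other. Its intronic region 49.9 kb downstream had fold enrichments of 6.41, 4.43, 6.03 and 6.85 in the arcuate and no peak in any AVPV library. The exact Fisher test gave p = 0.0286, the smallest p that 4 against 4 libraries allow, and an adjusted p of 1 over the 5515 genes bound in at least 1 library. Of all genes, 0.576% were bound in all 4 arcuate and no AVPV library, and 0.129% the reverse, which no Kcn gene was. When the start sites of noncoding genes were counted as well, the nearest start to this region was that of D330025C20Rik, 48.5 kb away, and Kcng2 was no longer assigned it. Its fold in arcuate 2 was below 5, and with only peaks of a fold enrichment above 5 it was bound in 3 arcuate and 0 AVPV libraries.

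Other pore subunits, chosen for description after their values were seen, were bound less regularly. Kcnh7, of the ERG type, was bound in arcuate 1 and 2 and in no AVPV library. Kcnh1, of the ether-a-go-go type, was bound in 3 AVPV and 1 arcuate libraries, Kcnq3, a subunit of the M current, in 2 AVPV and 1 arcuate, and the A-type subunit Kcna4 in 2 AVPV and 0 arcuate libraries. Kcna2 and Kcnh8 were bound in 1 library of each nucleus, Kcnb2, Kcnc2, Kcnh2 and Kcnh5 in a single arcuate library, and Kcng3 and Kcnv1 in a single AVPV library. The 3 Kcns genes, also silent subunits, had no peak in any library, and of the 8 Kcna genes only Kcna2 and Kcna4 had any. The pore genes without a peak also included Kcnc1, Kcnc4, Kcnd1, Kcng1, Kcng4, Kcnh3, Kcnh4, Kcnh6, Kcnq1 and Kcnq5.

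The 12 auxiliary subunits of voltage-gated channels included 6 bound genes (50%), 3 in at least 2 libraries of the arcuate and 3 in the AVPV (25% each), set against the same 26.3%, 14.7% and 11.9% of all genes. Kcne4, a single-pass membrane protein that inhibits several voltage-gated pores, had more peaks in total than any other Kcn gene, with 6, 5, 5 and 2 in the arcuate libraries and 3, 3, 4 and 5 in the AVPV. Its region 27.0 kb upstream (chr1:78789721-78790112), in intergenic DNA, had fold enrichments of 12.3, 12.4, 13.7 and 7.94 in the arcuate and 6.80, 9.83, 6.88 and 11.4 in the AVPV. Arcuate 4 fell among the AVPV values, so the nuclei overlapped. The other Kcne4 sites, at 21.4 kb upstream and 76.0, 190.5 and 263.6 kb downstream, lay in introns of the noncoding gene Gm29536, whose start site was nearer than that of Kcne4 for the last of them. The site at 190.5 kb had peaks in arcuate 1, 2 and 3 and in no AVPV library.

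Kcnip1 and Kcnip4 encode calcium-binding proteins that attach to the Kcnd pores as auxiliary subunits. The Kcnip1 region lay in an intron 18.5 kb downstream of the nearest start site (chr11:33661821-33662500), with fold enrichments of 10.3, 8.64, 8.27 and 7.19 in the arcuate and 4.86, 3.90, 5.54 and 7.49 in the AVPV. As percentiles within each list the values were 83.5, 78.8, 73.3 and 67.4 in the arcuate and 20.4, 5.80, 40.2 and 63.7 in the AVPV. All 4 arcuate percentiles were above all 4 AVPV percentiles, with means of 75.7 ± 6.96 and 32.5 ± 25.1 (SD, n = 4 each). The exact permutation test over the 70 divisions of the libraries gave p = 0.0286, the smallest possible, and an adjusted p of 0.136 over the 1089 regions with a peak in every library. Of the 8 such Kcn regions, only this one had percentiles that did not overlap between nuclei. The fold enrichments themselves overlapped, since arcuate 4 was below AVPV 4, and the arcuate lists were the longer ones. With lists cut to equal length the percentiles of no Kcn region passed the exact test. Over all 1089 regions the arcuate was entirely higher in 14.2% and the AVPV in 6.8%.

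Kcnip4 was bound in all 4 arcuate libraries and in AVPV 4. Its region, 0.9 kb upstream of a start site (chr5:49525506-49526034), had fold enrichments of 9.64, 6.87, 5.87 and 6.86 in the arcuate and 3.74 in AVPV 4. The single AVPV peak was weaker than all 4 arcuate peaks of that region (exact Fisher p = 0.143, adjusted p = 1 over all bound genes). This was the only Kcn promoter region, here within 1 kb upstream of a start site, that was a site, and 1 of 2 Kcn sites within 1 kb, the other being the Kcnd2 exon. With the GENCODE M21 annotation, or with peaks counted inside gene bodies, Kcnip4 was bound in the same share of libraries in both nuclei. Promoters held 2.70% of the 37 Kcn sites and 27.1% of all 4388 sites, and introns held 64.9% and 32.7%. Among the remaining auxiliary genes, Kcnab1, which encodes a beta subunit, was bound in 2 AVPV libraries and 1 arcuate library, Kcnab3 in 1 of each and Kcnab2 in arcuate 1, while the other 4 Kcne genes and Kcnip2 and Kcnip3 had no peak.

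**Figure D4:**
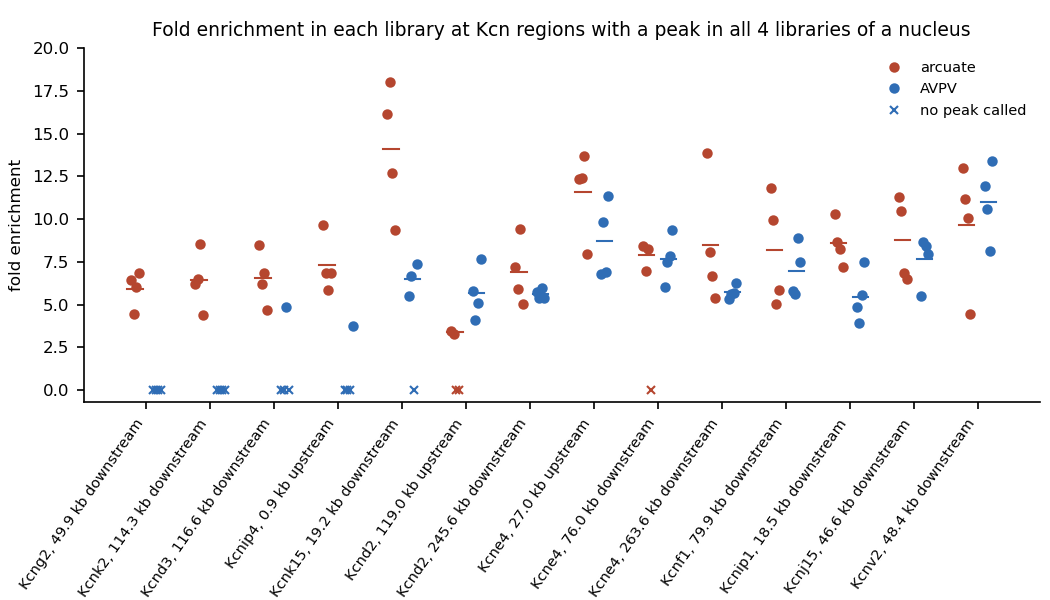
Fold enrichment of the strongest peak in each library at 14 Kcn regions with a peak in all 4 libraries of at least 1 nucleus, labelled by gene and distance from its start site. Dots are libraries (red, arcuate; blue, AVPV), short lines are means over the libraries with a peak where there are at least 2, and crosses drawn at 0 mark libraries with no called peak. The Kcng2 and Kcnk2 regions on the left have 4 arcuate dots and 4 AVPV crosses, and the Kcnk15 dots of the arcuate all lie above those of the AVPV.

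Of the 15 inward rectifiers, which hold the resting potential, 5 were bound in at least 1 library (33.3%, against 26.3% of all genes), 3 in at least 2 arcuate libraries (20%, against 14.7%) and 2 in at least 2 AVPV libraries (13.3%, against 11.9%). Kcnj15 was bound in all 8 libraries by an intergenic region 46.6 kb downstream (chr16:95303944-95304350), with fold enrichments of 11.3, 10.5, 6.84 and 6.49 in the arcuate and 5.49, 8.67, 8.45 and 7.95 in the AVPV, which overlapped. This was its only region, and with noncoding start sites counted it went to Gm31641, 44.4 kb away, which left Kcnj15 with none. The Kcnj13 region with the perfect element lay 29.8 kb downstream in an intron of Gigyf2 (chr1:87364776-87365148). It had peaks in 3 libraries of each nucleus, at 3.497, 4.64 and 7.19 in arcuate 1, 2 and 4 and 4.97, 5.63 and 6.53 in AVPV 1, 3 and 4. Kcnj6 and Kcnj3, which form the channels opened by G proteins below opioid and GABA-B receptors, were bound in 2 and 1 arcuate libraries and in no AVPV library. The Kcnj6 peaks lay in different regions, 35.0 kb downstream in arcuate 1 (fold enrichment 3.21) and 19.5 kb upstream in arcuate 4 (3.83). Kcnj16 had a peak in arcuate 1 only, and the other 10 Kcnj genes had none, among them Kcnj11 and Kcnj8, the pores of the ATP-sensitive channels that couple metabolism to firing.

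The tandem-pore leak channels of the Kcnk subfamily conduct at rest. Of these 14 genes, 7 were bound in at least 1 library (50%, against 26.3% of all genes), 4 in at least 2 arcuate libraries (28.6%, against 14.7%) and 3 in at least 2 AVPV libraries (21.4%, against 11.9%). Kcnk2 encodes a leak channel gated by stretch and lipids. Its intronic region 114.3 kb downstream (chr1:189228811-189229239) had fold enrichments of 6.22, 6.50, 8.53 and 4.40 in the arcuate and no AVPV peak (exact Fisher p = 0.0286, adjusted p = 0.969 over all 8072 regions). With the Kcng2 region it made up the 2 of 74 Kcn regions with peaks in all 4 arcuate and no AVPV libraries (2.13% of all regions), and no Kcn region showed the reverse (0.818%). The noncoding gene A430027H14Rik started slightly nearer to the Kcnk2 region than Kcnk2 did. Kcnk2 as a gene did not separate the nuclei, since another intronic region 21.7 kb downstream (chr1:189321366-189322008) had peaks in AVPV 1, 3 and 4 and arcuate 1 and 2.

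The strongest Kcn region in the arcuate was assigned to Kcnk15, whose product gives no current by itself. It lay 19.2 kb downstream in an intron of Rims4, a presynaptic protein gene (chr2:163872700-163873164). The fold enrichments were 16.2, 18.02, 12.7 and 9.38 in the arcuate and 5.49, 6.65 and 7.38 in AVPV 1, 2 and 4, with no peak in AVPV 3. Every arcuate value exceeded every AVPV value, but with a missing peak the region was not among those tested by rank, and its peak calls did not separate the nuclei (exact Fisher p = 1). It held no response element. Kcnk13 was bound in 3 arcuate and no AVPV libraries and Kcnk12 in 2 of each, and both encode halothane-inhibited leak channels. Kcnk5 had a peak in a single arcuate library, Kcnk1 and Kcnk10 in a single AVPV library each, and the other 7 Kcnk genes had none. These Kcnk genes, like Kcnj13, were chosen for description after their values were seen.

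Of the 12 calcium- or sodium-activated channel genes, 3 were bound (25%, against 26.3% of all genes), all in at least 2 arcuate libraries (14.7% of all genes) and 1 in at least 2 AVPV libraries (8.33%, against 11.9%). Kcnma1, the pore of the large-conductance channel that shortens action potentials, was bound in 4 arcuate and 2 AVPV libraries through scattered regions, of which 1, 585.8 kb downstream, recurred in 2 libraries of a nucleus. Kcnn2, a subunit of the small-conductance channels that contribute to the afterhyperpolarisation, was bound in arcuate 1, 2 and 4 and in no AVPV library. Its regions, at 93.5, 221.4, 248.1 and 303.1 kb downstream, each had a peak in a single library, so none of them recurred. Kcnt1, a sodium-activated pore, was bound in arcuate 1 and 2 by a pair of intronic regions, at 15.3 kb with fold enrichments of 4.85 and 3.77 and at 37.2 kb with 2.87 and 3.54, each with an element of 1 mismatch. The 4 Kcnmb beta subunits, Kcnu1, Kcnn1, Kcnn3, Kcnn4 and Kcnt2 had no peak, and neither did Kcnrg, a regulator outside these classes. The genes of this paragraph were also chosen after their values were seen.

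**Figure D5:**
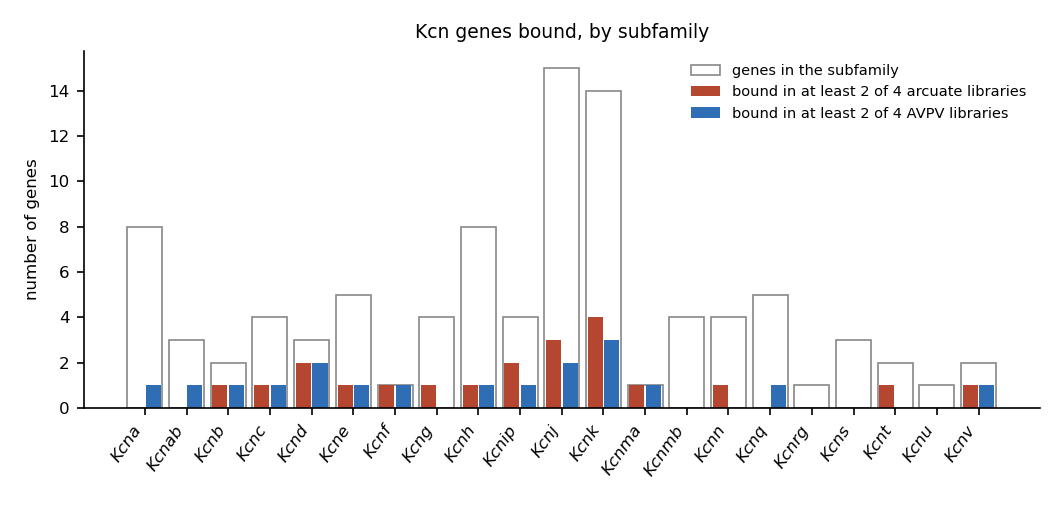
Number of Kcn genes in each subfamily of symbols (open bars) and number bound in at least 2 of 4 arcuate (red) or AVPV (blue) libraries, peaks at any distance, on a linear axis from 0. Kcnj and Kcnk are the largest subfamilies, with 3 and 4 genes bound in the arcuate and 2 and 3 in the AVPV, and Kcnmb, Kcns, Kcnu and Kcnrg have none.

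Of the genes bound in the arcuate, 6 (Kcng2, Kcnh7, Kcnj6, Kcnk13, Kcnn2 and Kcnt1) had no AVPV peak at all, whereas Kcna4 was the only gene bound in at least 2 AVPV libraries and no arcuate library. Over all genes these classes held 3.31% and 1.05%. At 6.38% and 1.06% of the Kcn genes, the arcuate class was the larger in both sets, and the arcuate lists were also longer. Each region of Kcnj6 and of Kcnn2 had its peak in a single library, so neither gene had a recurring region. By the exact Fisher test over libraries, 1 of the 40 bound Kcn genes (Kcng2) and 148 of all 5515 bound genes had an unadjusted p below 0.05, and 0 had an adjusted p below 0.05. With the 20 kb limit none of 17 bound Kcn genes reached an unadjusted p below 0.05 by the same exact test, against 63 of 3671 genes, and 0 passed after adjustment.

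Of the 74 Kcn regions, 37 lay in the body of their own Kcn gene, 3 at its promoter or transcript end, 15 at another gene and 19 between genes. The last are 25.7% of Kcn regions, where 32.2% of all regions were intergenic, and 44.1% of all regions lay in the body of their nearest gene. Beyond 100 kb of the start site were 27 Kcn regions (36.5%, against 24.2% of all regions). A peak in a single library made up 34 of the 74 (45.9%, against 41.5% of all regions). Peaks in at least 2 arcuate and no AVPV libraries marked 10 of them (13.5%, the same as over all regions), and the reverse marked 5 (6.76%, against 5.19%). The 37 that were sites (54.4% of all 8072 regions were) belonged to 23 genes, lay at a median of 48.4 kb from the start site, and were in their own gene's body in 19 cases. For a region in another gene, such as those of Kcnk15, Kcnj13 and Kcne4, the nearest start site need not be that of the gene it acts on.

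A set of 16 genes outside the Kcn symbols, encoding partners of potassium channels, was counted in the same way. Of these, 8 were bound in at least 1 library (50%, against 26.3% of all genes), 4 in at least 2 arcuate libraries (25%, against 14.7%) and 3 in at least 2 AVPV libraries (18.8%, against 11.9%). Cntnap2, which clusters axonal channels, and Dlg4, the postsynaptic scaffold, were bound in all 8 libraries, Dlg4 within 20 kb of its start site in each. Dpp6, an auxiliary subunit of the Kcnd pores, was bound in 4 arcuate and 2 AVPV libraries and its relative Dpp10 in a single arcuate library. Vapa, which anchors channel clusters at the membrane, was bound in 2 arcuate and 1 AVPV libraries. Lrrc38, an auxiliary subunit of Kcnma1 channels, and Adam22 had a peak in a single arcuate library, and Cntn2 in 1 of each nucleus. Abcc8 and Abcc9, the regulatory subunits of the ATP-sensitive channels, had no peak, like their pores Kcnj11 and Kcnj8, and neither did Lrrc26, Lrrc52, Lrrc55, Amigo1, Vapb or Lgi1.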

How the data were processed

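Peak lists of 8 ERα ChIP-seq libraries were used, 4 of the arcuate and 4 of the AVPV, grouped by the tissue in the labels. The 2 input libraries were not analysed here. Per the submitters' processing notes the authors aligned reads to mm10 with Bowtie2 (2.5.0), called peaks with MACS2 (2.2.7.1), and made coverage tracks with deepTools (3.5). The control given to MACS2 is not given in the sources used here. The deposited lists were called library by library, to a false discovery rate of 5% judged from their lowest −log10 q-values, and give the authors' score (not used), fold enrichment (a ratio to local background) and −log10 p-value and q-value. Fold enrichment was compared between libraries as a percentile within its list. No 2 libraries held an identical peak, and the chromatin was pooled. The labels do not say that libraries came from separate pools, so SDs and p-values describe the spread between libraries, which may be technical. Precision was limited by the list lengths and by n = 4.

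Peak centres were assigned to the nearest start site of 39650 curated RefSeq transcripts of protein-coding genes (GRCm38.p6, the mm10 build), with no distance limit or within 20 kb. Each gene or merged region (at least 1 bp shared) was tested by the two-sided exact Fisher test of 4 against 4 libraries, and regions with a peak in every library by the two-sided exact permutation test of mean percentile, each with Benjamini-Hochberg adjustment over all genes or regions tested. Counts over Kcn genes were not tested. A gene was named if bound in all 4 libraries of a nucleus and at most 1 of the other, in all 8 libraries, or within 1 kb of a start site in at least 2 libraries of a nucleus, which gave 9 genes. Some Kcn genes are counted but not reported by name here. Members and lists were chosen with earlier results of these data known, and territories and densities were computed after the bound shares had been seen. Other settings for distance, start sites, peak strength, list length, annotation, response element and left-out libraries were tried. Scripts used Python (3.11.15), pandas (2.3.3), scipy (1.17.1) and pysam (0.24.0), and were tested on simulated data.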

Additional observations from a re-analysis of the deposited data

Results flagged for a closer look

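Of 37 sets of 4 library values tested for a library far from the other 3, 4 were marked. The limit used marks about 1 in 20 sets of independent, normally distributed values by chance. These sets shared libraries and peaks, and some held tied counts, so that rate need not apply. AVPV 2 had 3 Kcn genes bound within 20 kb, against 5 in each other AVPV library, and the lowest AVPV median distance of Kcn peaks, 40.8 kb. It was also the library with the fewest Kcn peaks, at 14. In arcuate 4, 37.5% of Kcn peaks lay within 20 kb, against at most 24.0% in the other arcuate libraries. The median distance over all its peaks was the shortest of the arcuate libraries, at 0.812 kb. In arcuate 3 the median percentile of fold enrichment of Kcn peaks was 51.7, against at most 45.04 in the other arcuate libraries.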

How the results depend on the processing

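The excess of bound Kcn genes over all genes, 8.66 percentage points in the arcuate and 5.47 in the AVPV, turned to -0.421 and -2.35 within 20 kb, where 7 and 4 Kcn genes were bound in at least 2 libraries and 0 were bound in all 4 arcuate and 0 AVPV libraries. The arcuate excess was 3.95 with start sites of every RefSeq gene, where the separated gene count was 0 as Kcng2 lost its site, and 4.37 with fold enrichment above 5. Peaks counted inside gene bodies gave 11 bound Kcn genes in each nucleus, and excesses over all genes of 4.95 points in the arcuate and 4.33 in the AVPV. Requiring 1 library gave 35 in the arcuate, and requiring all 4 gave 13 and 7. The shares of all genes under these library rules were not computed, so these counts do not show a change particular to Kcn genes. With fold enrichment above 5 and with lists of equal length, 1 Kcn region separated the nuclei (peaks in all 4 arcuate and 0 AVPV libraries), and of the genes Kcng2 did not and Kcnip4 did (exact p = 0.0286). With -log10 q of at least 5 the genes were 2. In these 3 settings 0 Kcn regions passed the rank test, which needs a peak in every library. With fold enrichment above 5 the Kcnip1 region was not tested, since its peaks in AVPV 1 and AVPV 2 (4.86 and 3.90) fell away. With -log10 q of at least 5 it was not tested either, since Kcnip1 was bound in a smaller share of AVPV than of arcuate libraries. These 2 settings therefore do not show whether its rank difference held. With at most 1 mismatch, 9 Kcn sites held an element (24.3%, against 15.7% of all sites).

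Leaving out 1 library at a time gave 16 to 21 bound Kcn genes for the arcuate and 13 to 18 for the AVPV, excesses of 6.58 to 9.39 and 4.11 to 7.17 points, 1 to 2 separated genes (Kcnk13 added without arcuate 2, Kcnn2 without arcuate 3, Kcnip4 without AVPV 4), 0 to 1 within 20 kb (without AVPV 4), 2 to 4 separated arcuate regions (4 without arcuate 4), 0 to 1 AVPV regions (1 without AVPV 2) and 0 to 2 rank differences (0 without arcuate 1, 2 or 3, and 2 without arcuate 4 or AVPV 3). Dropping any library leaves the arcuate percentiles of the Kcnip1 region all above those of the AVPV. In unequal groups the two-sided permutation test can also count the opposite extreme, so a full separation need not pass. The rank counts therefore do not show whether the Kcnip1 difference held, and they need not be of the same region. Libraries with the same number did not deviate together (correlations from -0.0832 to 0.0503 over genes), so the numbers were not taken as pairs. With the replicate block 0 genes and 0 regions passed, since its smallest exact p is 0.125. In all, 166 recomputed main values kept their direction and stayed within 1.5 times (counts) or 1 SD (differences), 31 moved further and 2 reversed. Some of the 166 could not change, since leaving out a library of a nucleus leaves the bound count and excess of the other nucleus as they were. Model transcripts and GENCODE M21, chosen after seeing the data, moved no main value past these margins. Among the named genes, however, the difference between nuclei at Kcnip4 was 0 with GENCODE M21. The causes of these changes were not tested. The number of peaks called sets which genes can be seen, and the reads behind it were not analysed here.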
